A study of Rattus rattus with 8 samples.

Results

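The matrix proteases and their inhibitors were taken as every row of the deposited expression table whose symbol names a matrix metalloproteinase (Mmp followed by a number), a tissue inhibitor of metalloproteinases (Timp), an ADAMTS protease or an ADAMTS-like protein (Adamtsl). The rule found 49 of 30957 genes: 22 Mmp, 4 Timp, 18 Adamts and 5 Adamtsl genes. The samples were sorted cells of neonatal rat heart cultures, labelled as NRCM (neonatal rat cardiomyocytes) of strain SD from pups 1 to 3 days old. The labels name the organism as Rattus rattus, while the reads were aligned to Rnor 6.0, a build of Rattus norvegicus, per the submitters' processing notes. Both groups had the same history: differential adherence, 24 h of culture in the presence of insulin-transferrin-selenium and 0.2 mM AraC, which blocks DNA synthesis, serum starvation, and 48 h at 1% oxygen. Cells were then stained with a Hoechst DNA dye at 2 µg/mL and sorted into a tetraploid (4n) and a diploid (2n) fraction, with 4 libraries each from independent experiments. No normoxic or unsorted libraries were analysed here, so no value below compares hypoxia with normoxia. A sort by DNA content can place a binucleated cell, a cell in G2 or a doublet of 2n cells in the 4n gate.

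Extracellular matrix is broken down by zinc proteases. MMPs cut collagens, gelatin and many other matrix proteins, and most are secreted as inactive precursors that other proteases activate. Membrane-type MMPs stay at the cell surface, where MMP14 activates MMP2 with the help of TIMP2. ADAMTS proteases cut proteoglycans such as versican and aggrecan, trim procollagens or act on microfibrils. ADAMTS-like proteins share the accessory domains of that family but lack the protease domain, and several bind fibrillin microfibrils. TIMPs block the active site of MMPs, and TIMP3 also that of several ADAMTS proteases. In the heart these genes are known mainly from fibroblasts, and they are studied for their part in matrix turnover after injury.

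Library totals ran from 15326219 to 16885512 counts in 4n and from 14783521 to 21033772 in 2n. The labelled cell type was checked against listed markers, given as summed CPM (counts relative to the library total, scaled for library composition). The 11 cardiomyocyte markers found in the table summed to between 4531 and 35096 CPM in 4n, against 524 to 1054 CPM in 2n. The 10 fibroblast markers summed to between 30393 and 53075 CPM in 4n, against 45960 to 59394 CPM in 2n. The fibroblast sum therefore stood above the cardiomyocyte sum in 7 of 8 libraries, 2n libraries included, and 4n replicate 3 was the exception. That goes against the label for the 2n fraction, and the libraries are called here by their gate. Most of the fibroblast sum came from Col1a1 and Col3a1. They had 28270 and 19134 CPM in 4n replicate 2, and 16942 and 9474 CPM in 4n replicate 4. In these 4n libraries the fibroblast sum lay above the cardiomyocyte sum only with Col1a1 and Col3a1 included. Mitochondrial genes took 24.1% to 25.9% of the counts in 4n replicates 2, 3 and 4, against 2.87% to 3.82% in 2n, while 4n replicate 1 had 3.71%. In bulk samples, fewer cells of a type and less RNA per cell cannot be told apart.

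Of the 49 genes, 33 had enough counts to be tested, 6 had a few counts and 10 were listed at 0 in all 8 libraries. Levels between genes were compared as FPKM, the authors' count scaled for gene length and library size. FPKM carry no correction for library composition, and a library rich in mitochondrial counts has lower FPKM for the rest, so the fractions were tested on counts instead. The transcripts of a few members dominated. Mmp14, the membrane-type protease that activates MMP2, and Mmp2, a gelatinase, were the most abundant. Mmp14 averaged 297 ± 79.5 FPKM in 4n and 487 ± 86.9 FPKM in 2n, and Mmp2 averaged 299 ± 128 FPKM in 4n and 465 ± 170 FPKM in 2n (SD, n = 4 each). By mean FPKM they ranked 169 and 170 among the 30957 genes. Together they made up between 82.1% and 87.6% of the summed Mmp FPKM in 4n libraries, and between 84.9% and 90.0% in 2n libraries. Their levels lay closer to each other than the spread between libraries.

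The inhibitors came next in order of level. Timp2, the inhibitor that takes part in MMP2 activation, averaged 208 ± 25.9 FPKM in 4n and 277 ± 33.2 FPKM in 2n (SD, n = 4 each). For Timp1 the means were 151 ± 56.1 FPKM in 4n and 144 ± 45.9 FPKM in 2n, and for Timp3 58.2 ± 16.3 FPKM in 4n and 74.0 ± 19.1 FPKM in 2n. Timp4, the fourth inhibitor, had between 0 and 2 counts per 4n library and between 0 and 4 per 2n library. Mmp23 averaged 60.8 ± 18.8 FPKM in 4n and 79.3 ± 8.50 FPKM in 2n. Levels of Mmp23 and Timp3 overlapped over the libraries.

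Below these stood ADAMTS genes of fibrous matrix and proteoglycans. Adamts2, a protease that removes the N-propeptide of procollagens, averaged 39.6 ± 16.4 FPKM in 4n and 63.2 ± 12.8 FPKM in 2n (SD, n = 4 each). Adamts1, which cuts versican, had 36.9 ± 10.9 FPKM in 4n and 49.0 ± 3.70 FPKM in 2n. Adamts10, a protease that acts on fibrillin microfibrils, ranked 1924 among all genes by mean FPKM, between Adamts1 and Mmp19. Mmp19 had 26.5 ± 9.38 FPKM in 4n and 40.2 ± 2.34 FPKM in 2n. Adamts5, the main aggrecan-cutting protease of mouse cartilage, had 16.1 ± 3.50 FPKM in 4n and 30.4 ± 6.06 FPKM in 2n. Neighbours in this order, from Adamts2 to Mmp19, overlapped over the 8 libraries. In all, 15 members had a mean of at least 10 FPKM and 29 a mean of at least 1 FPKM.

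**Figure D1:**
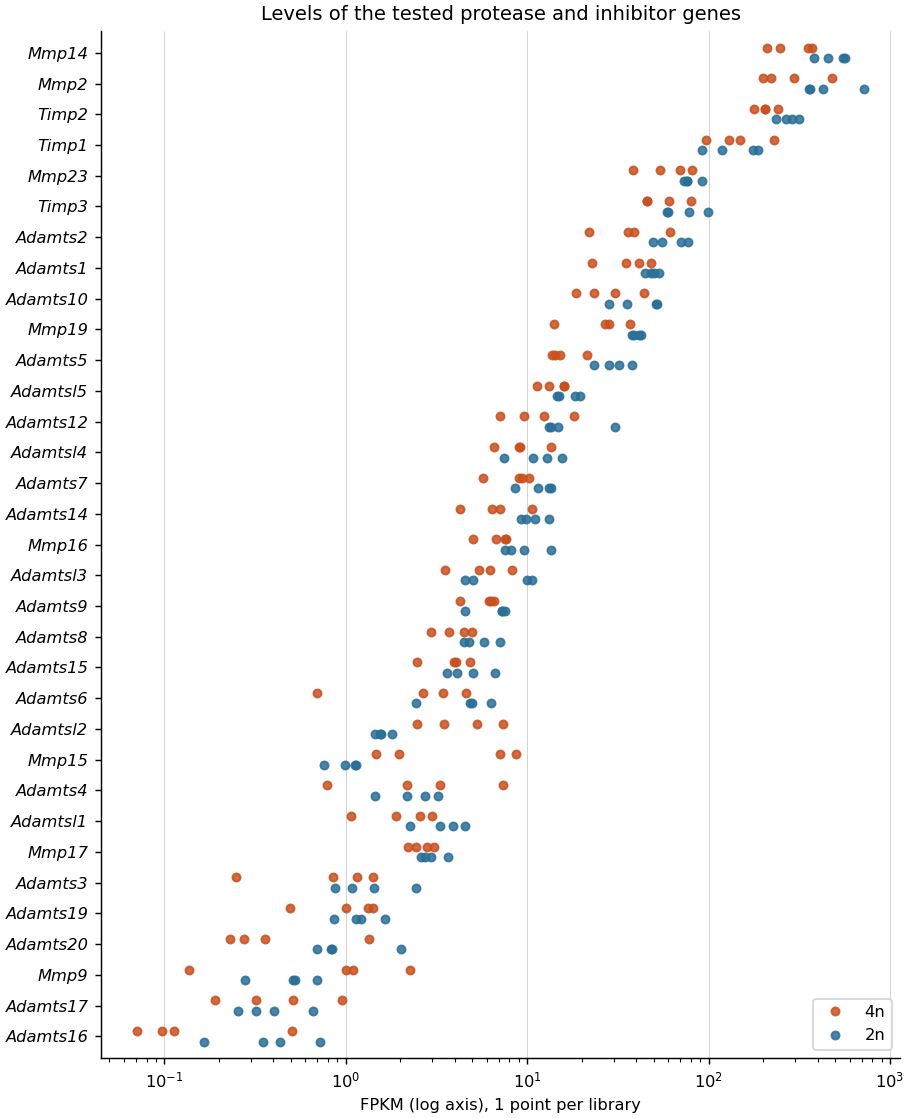
Deposited FPKM (log axis) of the 33 tested genes, ordered by mean level, with 1 point per library, 4n in orange above 2n in blue. Mmp14, Mmp2, Timp2 and Timp1 stand highest, and the 4n points of Adamtsl2 and Mmp15 lie to the right of all their 2n points.

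The secreted collagenases and stromelysins were near or at 0. A cluster of 10 Mmp genes on chromosome 8, from 5522739 to 5901049 in Rnor_6.0, collected 223 counts over all 8 libraries, and Mmp12 had 186 of these. Mmp1, Mmp1b, Mmp8, Mmp10, Mmp20 and Mmp27 in this cluster were listed at 0. Mmp3, a stromelysin that many inflamed fibroblasts make, had 1, 3, 0 and 4 counts in the 4n libraries of replicates 1 to 4, against 0, 5, 0 and 14 in the 2n libraries. The collagenase Mmp13 had 6 counts in 4n replicate 1 and 3 in 2n replicate 1, and was listed at 0 in the other 6 libraries. Mmp11, Mmp21, Mmp28 and Adamts18 were listed at 0 too. In a library, a count of 0 allows up to 3 counts, or 0.161 to 0.223 CPM in 4n and 0.130 to 0.183 CPM in 2n, which covers counting error only. A value of 0 in this table can also come from the counting, since Col1a2, a chain of the main fibroblast collagen, and Myh9, a myosin of most cells, are listed at 0 in all libraries. Mmp1 and Mmp1b are close copies of each other, so reads of theirs may have been left out by the counting.

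The comparison of 4n with 2n asks which of these transcripts differ between the DNA-content fractions of the same culture. Adamtsl2 rose in 4n, and Adamtsl1 and Adamts20 fell. The tested proteases and inhibitors otherwise leaned slightly towards lower values in 4n, without passing the test. Calls are edgeR quasi-likelihood tests with the replicate number as a block, at a Benjamini-Hochberg adjusted p under 0.05 over all 12983 genes tested. Of the 33 tested members, 1 was called higher and 2 were called lower, which is 3.03% and 6.06%. Among all genes, 4.27% were called higher and 0.608% lower. Before adjustment, 3 members were higher and 13 lower at p under 0.05, against 16.9% and 13.0% of all genes. A total of 25 members had a negative and 8 a positive fold, and the median log2 fold change was -0.21, against -0.02 over all genes. By pair, the median of the members was -0.11, -0.04, -0.51 and -0.23 for replicates 1 to 4, lowest in replicate 3. In 12 members the value was lower in 4n in 4 of 4 pairs and in 3 it was higher, while 19.7% and 20.2% of all genes did so.

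Adamtsl2, on chromosome 3 from 5624506 to 5654910, encodes a secreted protein that binds fibrillin and a latent TGF-beta binding protein, and in humans it is mutated in geleophysic dysplasia. It had 8.22, 14.8, 32.9 and 21.7 CPM in the 4n libraries of replicates 1 to 4, against 5.18, 5.16, 4.98 and 6.15 CPM in the 2n libraries. All 4n libraries lay above all 2n libraries, and the 4n libraries spread far more than the 2n libraries. The means were 19.4 ± 10.6 CPM in 4n and 5.37 ± 0.529 CPM in 2n (SD, n = 4 each). The edgeR log2 fold change was 1.70 ± 0.32 SE, a fold of 3.25, at an adjusted p of 0.0431. Without the block Adamtsl2 also passed (edgeR adjusted p = 0.0354), but it did not without replicate 2 or without replicate 4 (edgeR adjusted p = 0.121 and 0.234). The log2 fold change was then 1.76 and 1.65, and 0 of all genes were called in either of these settings.

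Adamtsl1, or punctin, on chromosome 5 from 104362971 to 104753863, is another matrix protein without protease activity. Its values were 22.1, 18.1, 10.7 and 23.9 CPM in the 4n libraries of replicates 1 to 4, against 34.1, 25.0, 17.4 and 29.9 CPM in the 2n libraries. Within each pair 4n was lower, although the groups overlapped. The log2 fold change was -0.53 ± 0.11 (SE, edgeR adjusted p = 0.0448). Adamts20, on chromosome 7 from 135466884 to 135630654, is a protease known from the belted coat pattern of mutant mice. It had 7.57, 2.60, 2.08 and 1.61 CPM in the 4n libraries, against 11.3, 4.77, 4.82 and 4.02 CPM in the 2n libraries, lower in 4n in every pair. Its log2 fold change was -0.96 ± 0.20 (SE, edgeR adjusted p = 0.0458), at a low level. Neither passed without the block (edgeR adjusted p = 0.384 for Adamtsl1 and 0.462 for Adamts20). Adamtsl1 was lost on leaving out any of the 4 replicates (edgeR adjusted p from 0.0621 to 0.204), and Adamts20 on leaving out replicate 2, 3 or 4 (edgeR adjusted p from 0.0741 to 0.234).

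Mmp15, a membrane-type MMP on chromosome 19 from 10079765 to 10101451, had the largest fold but just missed the threshold. It stood at 7.09, 6.84, 41.9 and 32.0 CPM in the 4n libraries of replicates 1 to 4, against 3.60, 2.78, 4.24 and 4.26 CPM in the 2n libraries. Replicates 3 and 4 of 4n were far above the other 4n libraries, and the groups did not overlap. In edgeR the log2 fold change was 2.19 ± 0.45 SE at an adjusted p of 0.0557, and by pair it was 0.96, 1.27, 3.27 and 2.88. Mmp15 passed with total count scaling, in DESeq2, in limma-voom, on log2(FPKM + 0.1), without robust shrinkage (edgeR adjusted p = 0.0285) and without replicate 1 (edgeR adjusted p = 0.0101). Of all genes, 7.68% lay above in every 4n library, as Mmp15 and Adamtsl2 did among the 33 members.

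Adamts5 and Mmp19 were the 2 members whose 4n libraries all lay below the 2n libraries, as did 3.69% of all genes. Adamts5, on chromosome 11 from 25410975 to 25456836, had 60.8, 56.0, 52.5 and 51.0 CPM in the 4n libraries of replicates 1 to 4, against 67.2, 82.0, 112 and 94.9 CPM in the 2n libraries. Its log2 fold change of -0.67 ± 0.16 (SE) just missed the threshold (edgeR adjusted p = 0.0538) and passed without replicate 1 (edgeR adjusted p = 0.00873). Adamts5 also passed without replicate 1 and with no block, with total count scaling, with no filter, in DESeq2, in limma-voom and with either FPKM setting. It did not pass on leaving out replicate 2, 3 or 4. The neighbouring gene Adamts1, from 25342126 to 25350974 on the same chromosome, had a log2 fold change of -0.21 ± 0.15 SE (adjusted p = 0.361, edgeR), positive in the pair of replicate 1 and negative in the other pairs. Mmp19 had 66.2, 65.7, 34.0 and 60.3 CPM in the 4n libraries, against 75.2, 78.1, 72.7 and 70.3 CPM in the 2n libraries, with replicate 3 of 4n lowest (edgeR log2 fold change -0.43 ± 0.16 SE, adjusted p = 0.129).

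The abundant proteases had negative folds that did not pass in edgeR. Mmp2, on chromosome 19 from 15542765 to 15570611, had 814, 707, 823 and 1656 CPM in the 4n libraries of replicates 1 to 4, against 985, 1022, 1222 and 2045 CPM in the 2n libraries. It was lower in 4n in every pair, by a log2 fold change of -0.42 ± 0.11 SE (adjusted p = 0.0633, edgeR). For Mmp14, on chromosome 15 from 33074441 to 33083655, values were 776, 1053, 621 and 677 CPM in the 4n libraries and 835, 1219, 1292 and 1029 CPM in the 2n libraries. Again 4n was the lower in every pair, with a log2 fold change of -0.49 ± 0.17 SE (adjusted p = 0.104, edgeR). At nearly the same folds Mmp2 passed in DESeq2 (adjusted p = 0.00122) and limma-voom (adjusted p = 0.0420), and Mmp14 in DESeq2 (adjusted p = 0.0298) but not in limma-voom (adjusted p = 0.0913). In edgeR the procollagen proteases Adamts2, Adamts14 and Adamts3 stood at -0.50, -0.43 and -0.50 on the log2 scale, with adjusted p between 0.0718 and 0.235. Adamts10 and Mmp23 had -0.30 and -0.19, and Adamtsl5 -0.01 (edgeR adjusted p from 0.140 to 0.953). Without the correction for library composition, 15 members were called lower and 2 higher in edgeR. That scaling moved the median of all genes by -0.24, so the members' median under it, -0.46, lies beside -0.26 for all genes.

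Among the inhibitors Timp1 had a positive fold, and Timp2 and Timp3 had folds near 0. Timp1, on chromosome X from 1364786 to 1369384, had 86.5, 128, 86.2 and 189 CPM in the 4n libraries of replicates 1 to 4, against 79.4, 127, 63.6 and 121 CPM in the 2n libraries. It was higher in 4n in every pair, by very little in replicate 2, with a log2 fold change of 0.30 ± 0.12 that did not pass (SE, edgeR adjusted p = 0.144). Timp2 had a log2 fold change of -0.17 ± 0.11 and Timp3 of -0.11 ± 0.10 (SE, edgeR adjusted p = 0.309 and 0.494). A ratio within a library does not depend on library scaling. Summed Timp FPKM over summed Mmp FPKM was 0.561, 0.575, 0.639 and 0.618 in the 4n libraries of replicates 1 to 4, against 0.479, 0.485, 0.432 and 0.436 in the 2n libraries. Every 4n library had the higher ratio. The sums behind it carry no correction for library composition. They were 700 ± 144 FPKM in 4n and 1087 ± 178 FPKM in 2n for Mmp, and 417 ± 80.3 FPKM in 4n and 495 ± 62.9 FPKM in 2n for Timp (SD, n = 4 each). The sum is mostly Mmp14 and Mmp2 and was chosen after their values were seen, so it is given with no test, and a ratio shows unequal change, not which family changed.

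**Figure D2:**
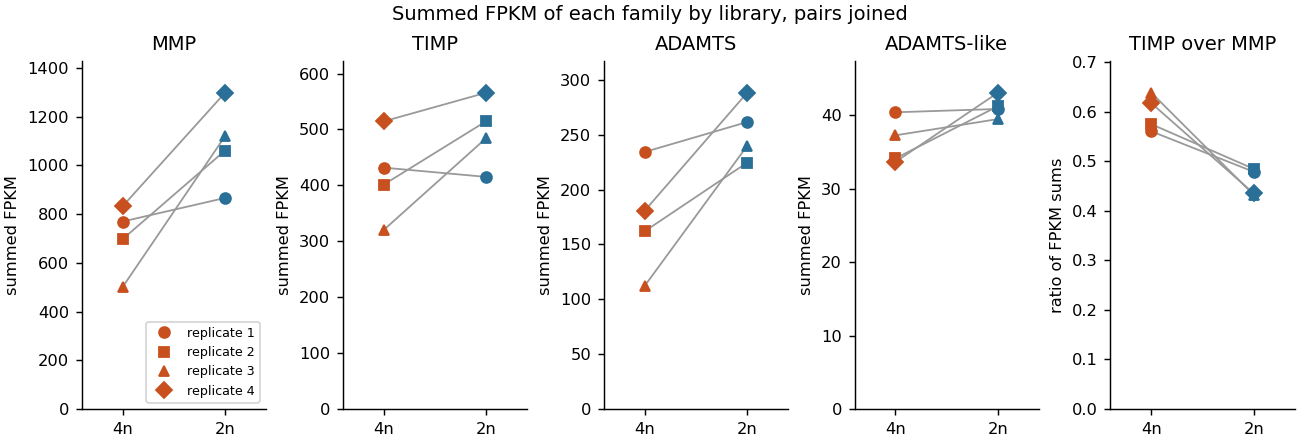
Summed FPKM of the MMP, TIMP, ADAMTS and ADAMTS-like genes, and the ratio of the TIMP to the MMP sum, with 4n left of 2n, 1 point per library and lines joining libraries of the same replicate number. The sums carry no correction for library composition. The ratio lies between 0.561 and 0.639 in 4n and between 0.432 and 0.485 in 2n.

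**Figure D3:**
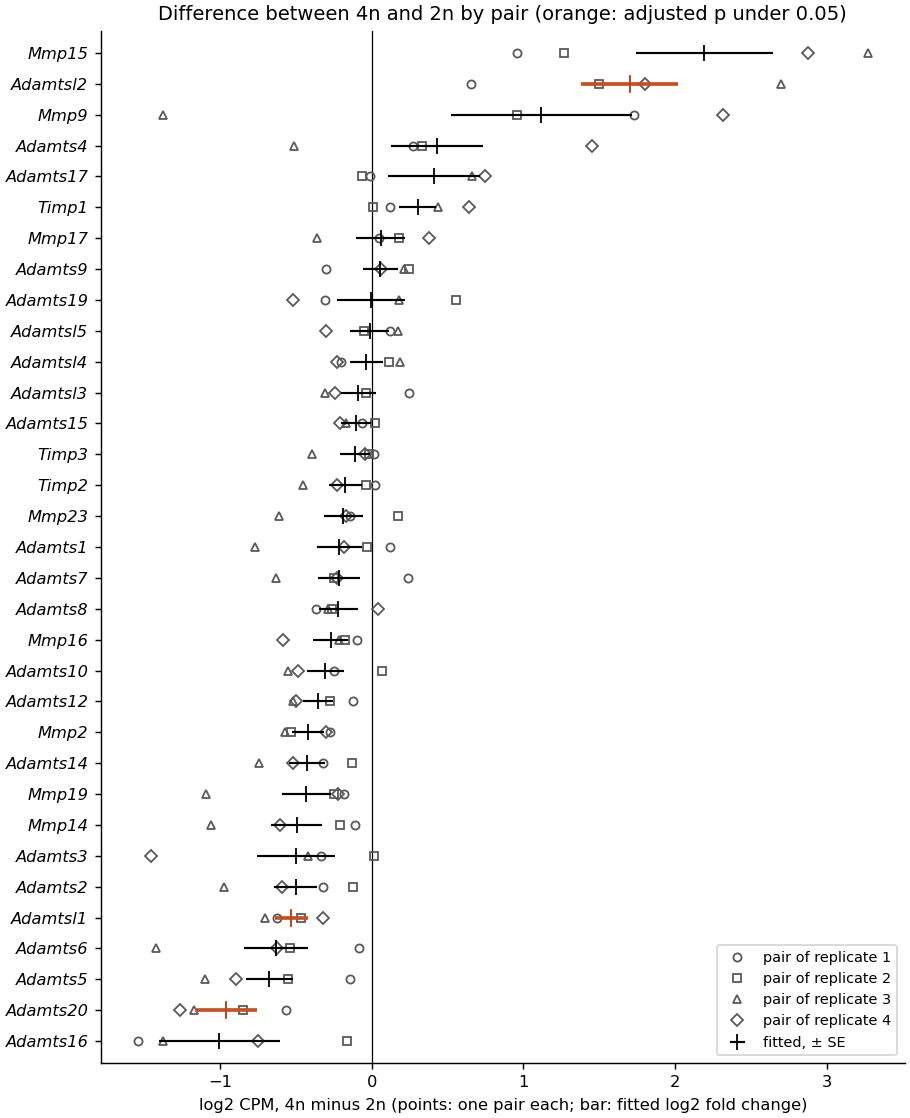
Differences in log2 CPM, 4n minus 2n, of the 33 tested genes: open symbols are the 4 pairs, the bar is the fitted log2 fold change with its SE, and the 3 genes in orange passed the test. Most genes lie slightly left of 0, Mmp15, Adamtsl2 and Mmp9 lie furthest right, and the pair of replicate 3 (triangles) is often furthest left.

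A few proteases of low level were uneven over the 4n libraries. Mmp9, the other gelatinase, made by many leukocytes, had 3.49, 4.91, 0.644 and 9.86 CPM in the 4n libraries of replicates 1 to 4, against 0.976, 2.47, 1.86 and 1.89 CPM in the 2n libraries. It was higher in 4n in 3 pairs and lower in the pair of replicate 3 (log2 fold change 1.12 ± 0.60 SE, edgeR adjusted p = 0.260), and without replicate 3 it passed with 1.73 (edgeR adjusted p = 0.0214). Mmp12, the macrophage elastase, had 19, 86, 0 and 62 counts in the 4n libraries, against 0, 6, 2 and 11 counts in the 2n libraries. It had too few counts to be among the genes tested. With no filter on low counts it passed (log2 fold change 3.58 ± 0.73 SE, edgeR adjusted p = 0.0429), although 4n replicate 3 was at 0. Adamts4, an inducible aggrecan-cutting protease, had 16.7, 14.2, 5.37 and 46.6 CPM in the 4n libraries, against 13.8, 11.3, 7.69 and 16.9 CPM in the 2n libraries. Here too the pair of replicate 3 went the other way (log2 fold change 0.43 ± 0.30 SE, edgeR adjusted p = 0.380).

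Markers of other cell types also differed between the fractions, and their order over the 4n libraries matched that of the members only in part. The cardiomyocyte sum was 4531, 9006, 35096 and 13991 CPM in the 4n libraries of replicates 1 to 4, the same order of libraries as for Adamtsl2, against 1044, 524, 792 and 1054 CPM in the 2n libraries, and 10 of 11 tested cardiomyocyte markers rose. The endothelial sum was 69.3, 77.7, 87.8 and 403 CPM in 4n, against 44.8, 26.8, 36.0 and 55.9 CPM in 2n, and 5 of 6 tested markers rose. Mmp15 was highest in 4n replicate 3, at 41.9 CPM, and the endothelial sum in 4n replicate 4. Both had replicates 3 and 4 as their highest 4n libraries. So did the cardiomyocyte sum, which like Mmp15 was highest in 4n replicate 3. Mmp15 had 7.09 CPM in 4n replicate 1 and 6.84 CPM in 4n replicate 2, while the cardiomyocyte sum was lower in replicate 1 than in replicate 2. The macrophage sum was 16.7, 11.6, 4.01 and 13.0 CPM in 4n, against 7.32, 5.12, 3.71 and 7.81 CPM in 2n. Only 2 of its 8 markers had enough counts to be tested, and neither passed (0 of 8 were at 0 in all libraries). The macrophage sum was lowest in 4n replicate 3, where Mmp12 was at 0 and Mmp9 at its lowest 4n value, and there Cd14 alone had 3.36 CPM. It was highest in 4n replicate 1, while Mmp12 was highest in 4n replicate 2 and Mmp9 in 4n replicate 4. Of 10 fibroblast markers, 10 had negative folds and 2 fell, with a median log2 fold change of -0.56, so the median of the members lay nearer 0 than that of the fibroblast markers. Neutrophil markers were at or near 0, with 4 of 6 at 0 in all libraries and a sum of at most 0.0946 CPM. Smooth muscle and epicardial markers had 0 of 6 and 0 of 5 genes called. The part of these cell types in the differences of Adamtsl2, Mmp15, Mmp9 and Mmp12 was not tested.

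**Figure D4:**
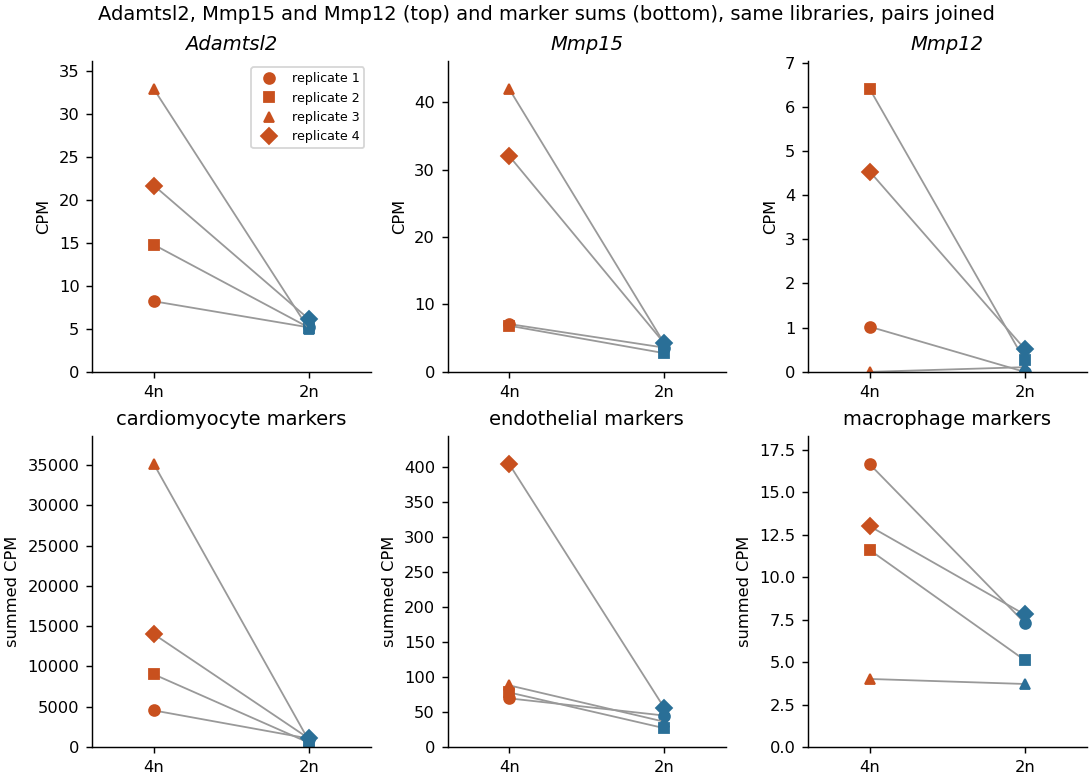
CPM of Adamtsl2, Mmp15 and Mmp12 (top) and summed CPM of cardiomyocyte, endothelial and macrophage markers (bottom), 4n left of 2n, with lines joining libraries of the same replicate number. Adamtsl2 and the cardiomyocyte sum order the 4n libraries alike, and 4n replicate 3 is lowest for both Mmp12 and the macrophage sum. The highest 4n library differs between Mmp15 (replicate 3) and the endothelial sum (replicate 4), while the cardiomyocyte sum is highest in replicate 3 as Mmp15 is. It also differs between Mmp12 (replicate 2) and the macrophage sum (replicate 1).

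Cultures were compared with each other next, taking the 4n and the 2n library of a replicate number as the samples of 1 culture. In an edgeR quasi-likelihood F test over the 4 cultures, 9 of 33 members (27.3%) differed, against 8.21% of all genes. They were Adamts12, Adamtsl3, Mmp2, Adamts20, Timp1, Adamtsl1, Adamts15, Timp3 and Adamts6, with edgeR adjusted p from 0.00820 to 0.0447. The shared culture is read from the sample descriptions, and the test measures differences between these 4 cultures and not a condition. On simulated counts, 32 of 181 calls of the test over cultures were false. The count changed on leaving out a culture. It was 7 members without replicate 1, 1 (Adamts12) without replicate 2, 13 without replicate 3 and 0 without replicate 4. All genes were not counted over cultures in these settings, so whether the change is particular to the members was not tested. The test of 4n against 2n called 0 of all genes without replicate 2 or without replicate 4. Without robust shrinkage 8 passed, all but Adamts6.

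Culture 4 against the mean of the other cultures had 5 members higher and 1 lower, against 3.67% and 0.439% of all genes. Mmp2, the gelatinase, had 1656 CPM in 4n and 2045 CPM in 2n of culture 4, while the other cultures ran from 707 to 823 CPM in 4n and from 985 to 1222 CPM in 2n. Its log2 fold change, culture 4 against the others, was 1.01 ± 0.12 (SE, edgeR adjusted p = 0.00497). Adamts12, a protease of cartilage oligomeric matrix protein, was at 174 CPM in 4n and 246 CPM in 2n of culture 4, with at most 96.2 CPM in 4n and 116 CPM in 2n elsewhere (log2 fold change 1.08 ± 0.11 SE, edgeR adjusted p = 0.00306). Both stood above all 6 libraries of the other cultures. Timp3 (0.68 ± 0.11), Timp1 (0.72 ± 0.13) and Adamts15 (0.62 ± 0.11), a versican-cutting protease, were higher as well (log2 fold changes with SE, edgeR adjusted p from 0.0174 to 0.0277). Timp1 in 2n of culture 4 lay below Timp1 in culture 2, at 121 CPM against 127 CPM. In 6 members (Adamts4, Adamts12, Adamts15, Adamts17, Mmp2 and Timp3) both libraries of culture 4 lay above the other 6 libraries, as in 6.41% of all genes, and in 1, Adamts19, both lay below, as in 4.44%. Mmp14, the activator of MMP2, had 677 CPM in 4n and 1029 CPM in 2n of culture 4, within the range of the other cultures (log2 fold change -0.18, edgeR adjusted p = 0.698).

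**Figure D5:**
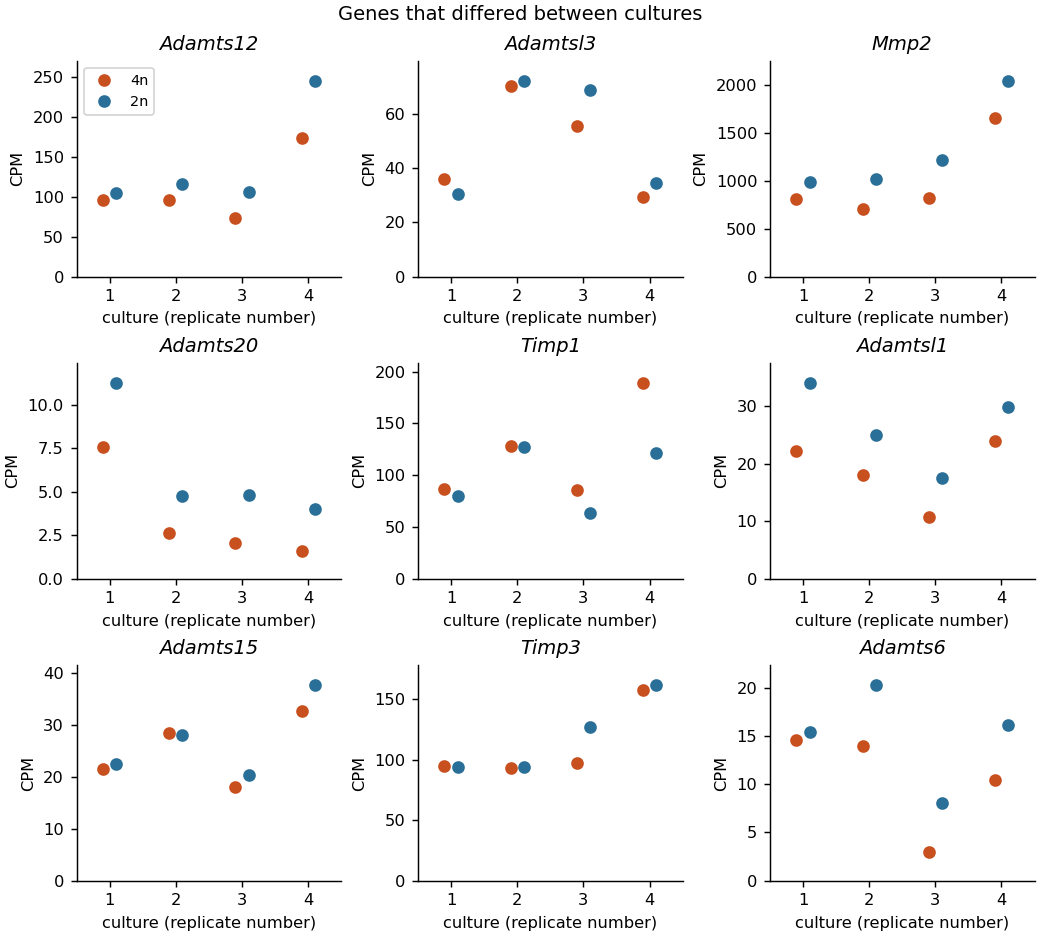
CPM of the 9 genes that differed between cultures, by culture (replicate number), 4n in orange and 2n in blue, 1 point per library. Mmp2, Adamts12 and Timp3 are highest in both libraries of culture 4, Adamts20 in culture 1, and Adamts6 is lowest in both libraries of culture 3.

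Genes of several lists were higher in culture 4 than in the others, where 3.67% of all genes were called higher. Among lists of the wider protease system, they were 3 of 7 proteoglycans, 2 of 7 plasminogen activation genes and 2 of 13 MMP regulators. The others were 2 of 10 cathepsins and cystatins, 1 of 6 tolloid and pappalysin genes, 1 of 10 microfibril partners and 0 of 9 ADAM proteases. The lists were chosen with earlier results of these data known, so their counts are no independent test. All 13 tested genes of the inflammatory list rose there, and their summed level, with the untested genes of the list included, was 2014 CPM in 4n and 2353 CPM in 2n of culture 4, against 426 to 585 CPM in 4n and 344 to 732 CPM in 2n of the other cultures. Among them Il6 had 26.9 CPM in 4n and 19.9 CPM in 2n of culture 4, and at most 2.20 CPM in any other library. Of 11 AP-1 and ETS factors, which bind many Mmp promoters, 3 rose in culture 4: Fosb, Fosl1 and Junb. As many, 3, rose in culture 1, where 4.53% of all genes were called higher: Fosl1, Fosl2 and Etv5. Some markers of cell types rose in culture 4 too. They were 3 of 6 endothelial markers (Cdh5, Vwf and Emcn, with log2 fold changes of 2.79, 1.74 and 2.51), 2 of 10 fibroblast markers (Dcn by 0.73 and Lum by 0.84), 1 of 6 smooth muscle markers (Rgs5, 2.35), 1 of 11 cardiomyocyte markers (Myl7, 1.52) and 1 of 5 epicardial markers (Msln, 1.84). Of the other fibroblast markers, Thy1 had a positive fold in culture 4. Col1a1, Col3a1, Pdgfra, Postn, Tcf21, Pdgfrb and Ddr2 had negative folds, and 0 fibroblast markers were called lower. The fibroblast sum was 30958 CPM in 4n and 45960 CPM in 2n of culture 4, the lowest 2n value. Smooth muscle and epicardial markers that were not called had folds of either sign there. The endothelial sum was 403 CPM in 4n and 55.9 CPM in 2n of culture 4, against at most 87.8 CPM in 4n and 44.8 CPM in 2n of the others, and 5 of 13 hypoxia genes rose. The part of these genes and cell types in the level of Mmp2, Adamts12 or the Timp genes was not tested. Mmp3, Mmp9 and Mmp13 are often induced with inflammatory genes. In culture 4 Mmp13 was at 0 in both fractions, and Mmp3 had 4 counts in 4n and 14 in 2n, its highest values but still near 0. Mmp9 was highest in 4n of culture 4, at 9.86 CPM, while 2n of that culture had 1.89 CPM.

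Adamtsl3, or punctin 2, divided the cultures differently. It had 36.1, 70.3, 55.7 and 29.4 CPM in the 4n libraries of cultures 1 to 4 and 30.4, 72.3, 69.0 and 34.7 CPM in the 2n libraries, so cultures 2 and 3 stood above cultures 1 and 4 in both fractions. Its log2 fold change against the other cultures was 0.82 ± 0.13 in culture 2, -0.64 ± 0.14 in culture 1 and -0.72 ± 0.14 in culture 4 (SE, edgeR adjusted p = 0.0208, 0.0359 and 0.0317). In culture 2 this was 1 member called higher, with 0.67% of all genes higher, and 0 members lower, with 1.97% of all genes lower. Before adjustment 5 members were higher and 6 lower at p under 0.05, beside 8.6% and 10.9% of all genes, and DESeq2 called 2 lower, beside 4.2% of genes. Both libraries of culture 2 lay above the other 6 in 4 members (Adamts1, Adamts16, Adamtsl3 and Mmp23), as in 6.29% of all genes, and below them in Adamts9 and Adamts17, as in 7.35%. Adamts20 was higher in culture 1, with 7.57 CPM in 4n and 11.3 CPM in 2n against at most 2.60 CPM in 4n and 4.82 CPM in 2n elsewhere (log2 fold change 1.58 ± 0.21 SE, edgeR adjusted p = 0.0105). In culture 1, 1 member was called higher and 1 lower, beside 4.53% and 3.4% of all genes. Both libraries of culture 1 lay above the other 6 in Adamts20 and Adamtsl4, as in 10.2% of all genes, and below them in 0 members, against 10.9%. Hypoxia genes also separated these cultures. Their sum was 6939, 2405, 5962 and 6199 CPM in the 4n libraries of cultures 1 to 4 and 7521, 2154, 5145 and 5837 CPM in the 2n libraries, and 11 of 13 fell in culture 2 and 11 rose in culture 1. Their part in the levels of Adamtsl3 and Adamts20 was not tested.

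Culture 3 had 0 members called in either direction in edgeR, where 0.146% of all genes were called higher and 0.139% lower. Before adjustment 5 members were higher and 11 lower at p under 0.05, beside 11.1% and 7.68% of all genes. DESeq2 called 2 members higher and 7 lower there, beside 2.25% and 2.45% of the genes to which it gave an adjusted p. Adamts6, a protease needed for heart development in mice, had 2.93 CPM in 4n and 8.06 CPM in 2n of culture 3, while the other cultures ran from 10.4 to 14.6 CPM in 4n and from 15.4 to 20.3 CPM in 2n. Its log2 fold change in culture 3 was -1.52 ± 0.27 (SE, edgeR adjusted p = 0.0634). Adamtsl1 was lowest in culture 3 in both fractions as well (-0.87 ± 0.14 SE, edgeR adjusted p = 0.0539). Both libraries of culture 3 lay below the other 6 in 5 members (Adamts4, Adamts6, Adamts15, Adamtsl1 and Adamtsl4), as in 3.13% of all genes, and above them in Adamts3, as in 3.47%. Timp2, Adamts5, Mmp14 and Adamts1 did not pass between cultures, with edgeR adjusted p from 0.363 to 0.757 in the F test and a ratio of the highest to the lowest culture mean from 1.18 to 1.41.

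The wider protease system was read from lists of genes, beside 4.27% of all genes called higher in 4n and 0.608% called lower. In plasminogen activation 1 of 7 tested genes rose in 4n: Plau, the urokinase activator, had 1.72, 5.28, 2.00 and 27.5 CPM in the 4n libraries of replicates 1 to 4, against 0.305, 2.21, 0.848 and 4.64 CPM in the 2n libraries (log2 fold change 1.89 ± 0.30 SE, edgeR adjusted p = 0.0275). Plau also differed between cultures, with log2 fold changes of 2.95 in culture 4 and -2.20 in culture 1 (edgeR adjusted p = 0.00268 and 0.0246). Among 13 cell-surface regulators of MMPs, Bsg, an inducer of MMPs, rose by 0.61 ± 0.14 on the log2 scale (SE, edgeR adjusted p = 0.0491). Of 6 tolloid and pappalysin genes, Pappa, a protease of insulin-like growth factor binding proteins, fell by 0.91 on the log2 scale (edgeR adjusted p = 0.0275). Among 7 proteoglycans Lum, or lumican, fell by 0.59 (edgeR adjusted p = 0.0387), and it is a fibroblast marker too. Jund rose among 11 AP-1 and ETS factors (log2 fold change 0.49, edgeR adjusted p = 0.0491). In edgeR 0 of 9 ADAM proteases, 0 of 10 cathepsins and cystatins, 0 of 10 microfibril partners, 0 of 13 inflammatory and 0 of 13 hypoxia genes were called between 4n and 2n. Median log2 fold changes of the lists ran from -0.39 for proteoglycans to 0.24 for cathepsins and cystatins, beside -0.02 over all genes.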

How the data were processed

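Messenger RNA of 8 libraries was analysed. Reads were aligned with HISAT2 2.0.4 to Rnor 6.0, per the submitters' processing notes. For the counting tool, its filters and strand, nothing is stated in the labels or headers. The authors deposited whole-number counts per gene and FPKM values in a table, per the file headers. Genes were kept by filterByExpr (12983), scaled by TMM and tested with edgeR 4.0.16 in R 4.3.3, with a robust quasi-likelihood fit of replicate number and group, two-sided, and Benjamini-Hochberg adjustment at 0.05. SE came from the fold change and F. Cultures were tested in the same fit. CPM values use TMM-scaled totals, and log2 CPM a prior count of 2. The fit was tested on simulated counts. False calls were 17 of 207 for 4n against 2n, 32 of 181 over cultures and 28 of 201 for culture 4. All made more false calls than the threshold allows, most so over cultures, so a fit without robust shrinkage was added afterwards.

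Pairing comes from shared codes in the sample descriptions, not a stated protocol: deviations of same-numbered libraries from their group means correlated at 0.43, 0.58, 0.27 and 0.65 for replicates 1 to 4, and at most 0.11 with other numbers. Deviations from a group mean cancel within the group, so the low values with other numbers are partly built in. The design text calls the 4 replicates independent experiments. Named genes were all members past the threshold (in the F test the 12 of smallest p), the 12 of highest mean FPKM, 12 fixed genes and the 3 of smallest p per direction between 4n and 2n. Mmp12, the procollagen proteases and the family ratio were picked out after their values were seen. Members and the 10 companion and 7 marker lists were chosen with earlier results of these data known. Alternatives were other scaling, no filter (1 count in any library), no block, leaving out each replicate, DESeq2 1.42.0, limma 3.58.1 (voom, and log2 of FPKM plus 0.1 or 1) and no mitochondrial genes.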

Additional observations from a re-analysis of the deposited data

Results flagged for a closer look

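In groups of 4 libraries, a library was picked out when its gap to the nearest other library, over the range of the group, exceeded Dixon's 95% critical value for 4 samples. Of 66 groups (33 members in 4n and in 2n) 8 were picked out, where chance gives about 1 in 20. Values are CPM.

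Replicate 4 stood apart on the high side for Mmp2 in 4n (1656 against 707 to 823), Timp3 in 4n (157 against 93.0 to 97.1), Adamts12 in 2n (246 against 105 to 116) and Adamtsl2 in 2n (6.15 against 4.98 to 5.18). Adamts20 stood apart in replicate 1 in both fractions, at 7.57 in 4n against 1.61 to 2.60 and at 11.3 in 2n against 4.02 to 4.82. Replicate 2 stood apart for Adamts16 in 4n (2.16 against 0.292 to 0.501) and, on the low side, for Adamts9 in 2n (32.9 against 54.2 to 54.4).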

How the results depend on the processing

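Between 4n and 2n, 554 genes were higher and 79 lower. These counts were 858 and 2520 with total count scaling, 1283 and 621 in DESeq2, 895 and 157 in limma-voom, and 894 and 2327 in limma on log2(FPKM + 0.1). Limma on log2(FPKM + 1) gave 2082 lower. With no replicate block edgeR called 347 higher and 1 lower. Leaving out a replicate number gave 0 to 1254 higher and 0 to 399 lower, and 26 lower without replicate 1 and with no replicate block. Members called higher (1) became 2 with total count scaling, no filter, DESeq2, limma-voom, log2(FPKM + 0.1) and the fit without robust shrinkage, which was chosen after seeing the data, and 0 to 3 on leaving out a replicate. Members called lower (2) became 15 with total counts, 8 in DESeq2, 4 in limma-voom, 12 with either FPKM setting, 0 with no replicate block and 0 to 4 on leaving out a replicate. Adamtsl5 (-0.01) ranged from -0.0788 to 0.0818 on leaving out a replicate, positive without replicate 4, reached 0.0906 there with no replicate block, and passed in neither. Among the settings run, the folds of the other named members kept their sign.

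Over cultures, 1066 genes and 9 members became 1914 and 15 with total counts and 2436 and 19 in DESeq2, and 0 to 13 members were called on leaving out a replicate. In culture 1, members higher (1) became 2 with DESeq2 size factors or no mitochondrial genes, 6 with total counts, 4 in DESeq2 and 5 with either FPKM setting, and members lower (1) became 0 with total counts or FPKM and 2 in DESeq2. In culture 2, members higher (1) became 2 with total counts, 3 in DESeq2 and 0 with log2(FPKM + 1), and members lower (0) became 1 with total counts and 2 in DESeq2. In culture 3, members higher (0) became 1 with total counts and 2 in DESeq2, and members lower (0) became 4 with total counts, 2 with no filter, 7 in DESeq2, 5 with log2(FPKM + 0.1) and 1 with log2(FPKM + 1). In culture 4, members higher (5) became 2 with log2(FPKM + 1), and members lower (1) became 2 with total counts or DESeq2. The causes were not tested. Leaving out a replicate also leaves fewer samples. The 16 members that were not tested had too few counts, and a listed 0 can also come from the counting.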

Other observations

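Ratios within a library show how the abundant members were balanced in each culture. The ratio of Mmp2 to Mmp14 FPKM was 0.832, 0.533, 1.05 and 1.94 in the 4n libraries of cultures 1 to 4, against 0.935, 0.665, 0.750 and 1.58 in the 2n libraries, so both fractions of culture 4 had more Mmp2 than Mmp14 transcript per length. Timp1 stood at 1.11 times the FPKM of Timp2 in 4n of culture 4, the 1 library in which it was the more abundant inhibitor, and at 0.609 times in 2n of that culture. Timp3 over Adamts5 was higher in 4n in 4 of 4 pairs, at 2.84, 3.02, 3.37 and 5.61 in 4n, against 2.54, 2.09, 2.06 and 3.10 in 2n. These ratios were chosen after the values were seen and are given with no test.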
